A study of Homo sapiens with 40 samples.

Results

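The fatty acid desaturases and elongases of human HepaRG liver cells were examined as a family of 10 genes, taken from the 56568 gene names of the deposited tables by their symbols: the desaturases SCD, FADS1, FADS2 and FADS3 and the elongases ELOVL1, ELOVL2, ELOVL4, ELOVL5, ELOVL6 and ELOVL7. All 10 symbols were found. HepaRG is a hepatic line whose differentiated cultures hold cells that resemble hepatocytes beside cells that resemble biliary epithelium. These cells were exposed from day 8 to day 14, that is for 6 days, in a medium with 2% fetal bovine serum and 1% DMSO that was shared by all 8 groups, the Control group included. Each group had 5 libraries. Control cells received the solvent alone. PCB 126, a coplanar polychlorinated biphenyl and ligand of the aryl hydrocarbon receptor (AhR), was given at 100 pM, at 10 nM or at 1 µM. The herbicide glyphosate was given at 10 µg/L, at 1 mg/L or at 0.1 g/L. Roundup, a commercial formulation of this herbicide, was given only at 10 µg/L. All libraries came from a single cell line in culture, no label says whether the libraries of a group were separate cultures, and p-values therefore measure the spread between these libraries, which may be technical. The same 5 Control libraries served the PCB 126 and the glyphosate comparisons, so these comparisons are not independent of each other.

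Long-chain fatty acids are built in the endoplasmic reticulum by a cycle whose first and rate-limiting step, the condensation that lengthens the chain, is carried out by the elongases. Desaturases insert double bonds: SCD makes monounsaturated from saturated fatty acids, while FADS2 and FADS1 act in turn, between rounds of elongation by ELOVL5 and ELOVL2, to make arachidonic acid and docosahexaenoic acid from the essential fatty acids of the diet. The liver is a main site of this synthesis, and SREBP-1c, the liver X receptors and PPARA are its best-known transcriptional regulators.

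Messenger RNA levels are given as FPKM, the fragments of a transcript scaled to its length and to all mapped fragments of the library, summed over all transcripts that carry the gene's name. The depth of the libraries is unknown from these values. Differences are on the log2(FPKM + 1) scale and were tested with limma, with Benjamini-Hochberg adjustment over all genes of a table and a threshold of 0.05. A gene entered the test when the variance of its FPKM over the libraries of a table was above 1. This left 9755 genes of the PCB 126 table and 9533 of the glyphosate table, and 7 of the 10 members in each (FADS1, FADS3, SCD, ELOVL1, ELOVL2, ELOVL5 and ELOVL6). FADS2, ELOVL4 and ELOVL7 did not pass this filter.

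The libraries were not scaled to each other, and their summed FPKM ranged from 255292 to 513059. In 10 of the 40 libraries the sum was under 340000. Among those for PCB 126 were replicates 2, 3 and 5 of 10 nM and replicates 1 and 5 of 1 µM. The others were Control replicate 5, glyphosate replicate 2 of 0.1 g/L and 5 of 10 µg/L, and replicates 4 and 5 of Roundup. The low sums were thus spread unevenly over the doses of PCB 126, and the dose trend as deposited did not adjust for them. Replicate 1 of PCB 126 1 µM stood apart from the rest: its long transcripts (4000 bases or more) were lower than its short ones (under 2000 bases) by 0.30 log2 units relative to the Control mean, against −0.12 to 0.13 in the other 39 libraries, so values at 1 µM that it moved by over 1.5 times, or whose call it decided, are given with and without it. The labels for PCB 126 were matched by CYP1A1, the classic AhR target, which lay between 85.2 and 389 FPKM at 1 µM and between 0 and 7.69 in Control. Hepatocyte markers were present (ALB 9144 to 12989 FPKM in Control). Of the biliary and progenitor list, KRT19 was present (189 to 391 FPKM), while EPCAM of the same list had a mean under 0.1 FPKM in Control. At 10 nM and 1 µM, CFTR of this list was under 0.1 FPKM too. The immune marker PTPRC and the endothelial marker CDH5 were at or near 0.

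In Control cells, SCD was by far the most abundant member, at 218 ± 57 FPKM (SD, n = 5), at percentile 99.7 of the genes above 0. ELOVL5 (34.2 ± 9.16), ELOVL1 (25.6 ± 7.07) and FADS3 (18.7 ± 8.28) followed, and their ranges overlapped. FADS1 had 11.7 ± 4.50, ELOVL6 had 8.45 ± 2.89 and ELOVL2 had 6.01 ± 1.42. FADS2, the gatekeeper of polyunsaturated fatty acid synthesis, had only 1.64 ± 1.01 FPKM, spread over several transcripts of which the leading one, ENST00000522056, made up 26.8%. ELOVL4, the elongase of very long chains known from retina and skin, was listed at 0 in 39 of 40 libraries and at 0.0186 in the remaining one.

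**Figure D1:**
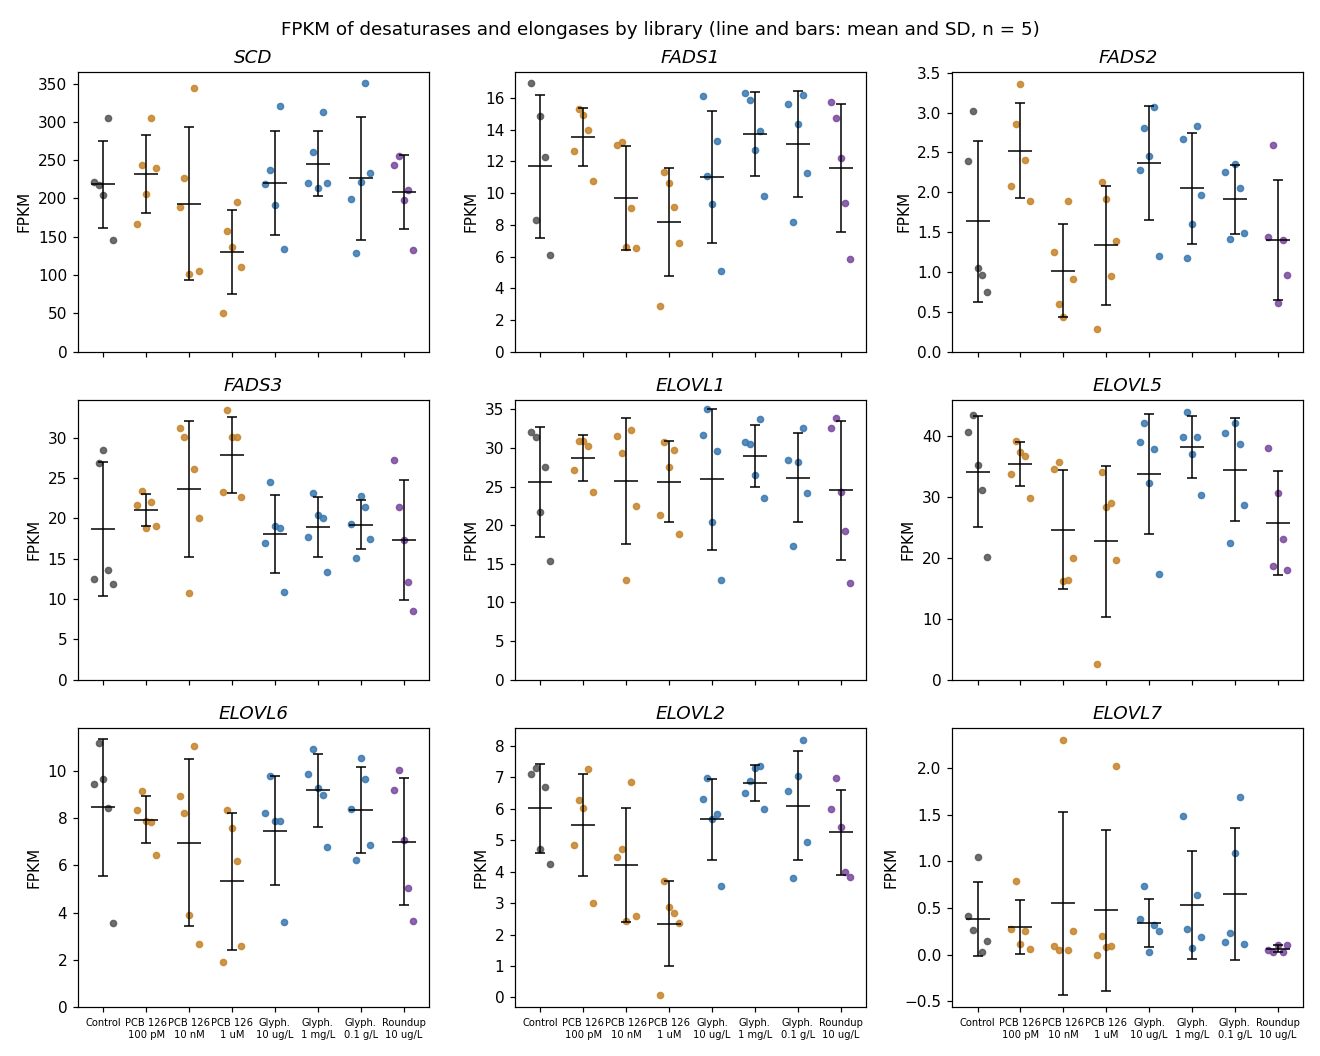
FPKM of 9 members in each of the 8 groups (x axis), with 1 point per library, the mean as a horizontal line and the SD as bars (n = 5; ELOVL4, listed at 0 in 39 libraries, is left out). All 5 ELOVL2 values at PCB 126 1 µM (0.087 to 3.71) lie below the lowest Control value (4.24), whereas for every other member shown the 1 µM and Control values overlap.

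PCB 126 was followed by lower ELOVL2 and, once its main transcript was counted, lower ELOVL7. FADS3 was higher, and its difference passed the test only in fits that scaled, length-corrected or weighted the libraries. At 1 µM, the group mean of ELOVL2 was 39.1% of the Control mean, that of ELOVL7 over its whole locus 42.4%, and that of FADS3 149%. As deposited, ELOVL2 summed by name and ELOVL7 summed over its locus passed the test over the dose steps, but not at 1 µM alone. The call of ELOVL2 was lost when some single libraries were left out. SCD, FADS1, ELOVL5 and ELOVL6 had lower means that passed in neither comparison as deposited, and ELOVL1 had the same mean as Control. None of the 7 tested members passed at any dose of glyphosate or in Roundup.

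ELOVL2 extends the very long polyunsaturated fatty acids that precede docosahexaenoic acid. Among the sums by gene name as deposited, it was the only member past the threshold, and only in the trend over the 4 dose steps from Control to 1 µM. Its 5 Control values were 7.11, 7.29, 4.71, 6.69 and 4.24 FPKM. At 100 pM they were 4.84, 6.27, 6.02, 7.28 and 3.00, and at 10 nM 4.47, 4.71, 2.43, 6.84 and 2.60. At 1 µM they were 0.087, 3.71, 2.88, 2.69 and 2.37, so that all 5 lay below all 5 Control values, a separation in this direction seen in 1.64% of the genes tested, while at the lower doses the values overlapped with Control. In these bulk samples, fewer cells of a type and less RNA per cell cannot be told apart.

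Per dose step, ELOVL2 fell by 0.39 on the log2 scale (SE 0.105, limma adjusted p = 0.0339), and it was the only 1 of the 7 tested members called, against a background of 3.7% of all genes in this trend, with 2.82% called lower and 0.882% called higher. An unadjusted p under 0.05 was found for 4 of the 7 members (ELOVL2, SCD, FADS3 and ELOVL5) in this trend, against 18.6% of all genes. The difference at 1 µM alone was −1.19 (95% interval −1.88 to −0.51, limma adjusted p = 0.0619), which missed the threshold as deposited and passed it after scaling each library to a common 75th percentile (−1.13, limma adjusted p = 0.0192). Without replicate 1, whose 0.087 FPKM was the lowest value of all, the 1 µM mean was 48.5% of Control and the slope −0.28 (adjusted p = 0.0831), and with the scaling it was again past the threshold (−0.26, adjusted p = 0.00543). Leaving out other single libraries also took away the call of the slope: the limma adjusted p became 0.0895, 0.0921, 0.0512 and 0.0821 without Control replicates 1, 2, 3 and 4, and 0.056 without replicate 5 of 1 µM.

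ELOVL2 is on chromosome 6, minus strand, and its named transcript, ENST00000354666, spans 10980759 to 11044314 on GRCh38 in 8 exons. The RNA of this gene was read from this single transcript, 98.0% of the FPKM at its locus. The strand setting of the quantification is not given in the sources used here. Because the study uses an AhR ligand, the region upstream of the gene is shown for the core of the dioxin response element, GCGTG, to which the AhR dimer binds. The 241 bases before the deposited start of the transcript, chr6:11044315-11044555, minus strand (RefSeq, GRCh38.p14), are given 5′ to 3′ with this core in capitals.

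ELOVL2: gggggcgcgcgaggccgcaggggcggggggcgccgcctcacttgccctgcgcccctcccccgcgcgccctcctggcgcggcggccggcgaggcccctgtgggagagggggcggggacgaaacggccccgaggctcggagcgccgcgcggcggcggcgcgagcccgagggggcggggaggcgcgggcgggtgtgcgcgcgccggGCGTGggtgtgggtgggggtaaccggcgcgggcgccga

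The window held 1 GCGTG core, no CCAAT box and 4 GC boxes (GGGCGG). Matches were counted on both strands, and matches of different motifs may share a base. In the 250 bases before the start site of the 35116 RefSeq promoters, GCGTG was found in 32.2%, CCAAT in 32% and GGGCGG in 42.6%, so the core is common, and a match marks no binding site by itself.

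Over all 40 libraries, the genes whose log2 levels ran most like those of ELOVL2, among 9260 genes tested in both tables, were POSTN (Pearson r = 0.961), APOH (0.957) and SESN3 (0.952). These values describe libraries that share differences in summed FPKM. ELOVL2 correlated with SCD at 0.866 as deposited and at 0.782 after scaling, and with FADS3 at 0.013 as deposited and at −0.586 after scaling.

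ELOVL7, an elongase of saturated and polyunsaturated acyl-CoAs, shows what naming does to these values. The transcripts that carry its name reached 0.381 ± 0.398 FPKM in Control (SD, n = 5), too low to be tested. Most of the signal at its locus, 90.6% over the 40 libraries, was in assembled transcripts to which no gene name was attached, above all a 9-exon transcript of 4313 bases on chromosome 5, minus strand, from 60751410 to 60844373. With these included, the Control libraries had 5.50, 6.40, 5.23, 4.35 and 3.39 FPKM at the ELOVL7 locus. At 1 µM the values were 0.699, 2.82, 2.68, 2.32 and 2.02, again all below all Control values. This was so for 1.65% of the genes tested, of which only the members were summed over the locus and all others by name.

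The 10 nM libraries had 2.79, 3.26, 2.44, 5.24 and 2.02 FPKM at the ELOVL7 locus and overlapped with Control, and the 100 pM libraries had 3.61, 5.81, 5.14, 7.62 and 3.76. Per dose step, the locus sum of ELOVL7 fell by 0.35 on the log2 scale (SE 0.0844, limma adjusted p = 0.0175). In that fit 3.71% of genes were called, with genes other than the members summed by name. At 1 µM the ELOVL7 difference was −0.98 (95% interval −1.53 to −0.43, adjusted p = 0.0559), or −0.87 (adjusted p = 0.00628) after scaling to the 75th percentile. Without replicate 1 of 1 µM the ELOVL7 slope was −0.29 (limma adjusted p = 0.0447) and the difference at 1 µM −0.77 (adjusted p = 0.166). The sum over the ELOVL7 locus is an alternative to the sum by gene name and was tested on the same libraries.

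**Figure D2:**
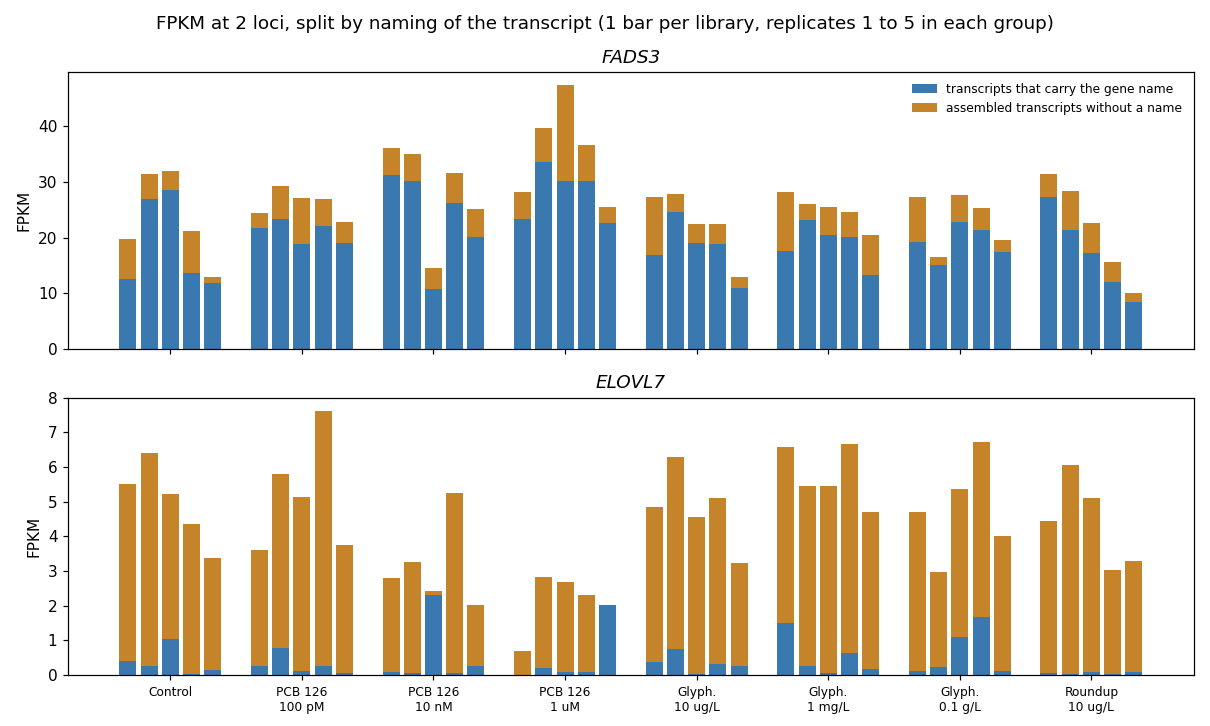
FPKM at the FADS3 and ELOVL7 loci in each library (1 bar per library, groups along the x axis), split into transcripts that carry the gene's name and assembled transcripts that carry none. At ELOVL7 the unnamed part makes up 90.6% of the total, and replicate 3 at 10 nM and replicate 5 at 1 µM are the libraries in which nearly all of it was assigned to named transcripts.

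FADS3 lies beside FADS1 and FADS2 in the desaturase cluster of chromosome 11 and acts on sphingoid bases, in which it introduces a double bond. The FADS3 values in Control were 12.5, 26.9, 28.5, 13.6 and 11.8 FPKM. The 100 pM libraries had 21.6, 23.4, 18.8, 22.1 and 19, and those of 10 nM 31.2, 30.1, 10.8, 26.1 and 20.0. The 5 libraries of 1 µM had 23.3, 33.5, 30.0, 30.0 and 22.7, all above 3 of the Control values. Of these, 3 were above the other 2 Control values (26.9 and 28.5) and 2 were below them. As deposited, the difference was 0.64 (95% interval 0.05 to 1.23, limma adjusted p = 0.323).

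Scaled to a common 75th percentile, the FADS3 mean was 31.6 ± 3.38 at 1 µM against 18.4 ± 6.34 in Control (SD, n = 5), and the groups no longer overlapped, as in 2.45% of genes in this direction after the same scaling. The scaled difference was 0.80 (95% interval 0.40 to 1.20, limma adjusted p = 0.0143) at 1 µM, and 0.26 per dose step (adjusted p = 0.0105). Of the 8548 genes that passed the filter after scaling, 6.68% and 9.8% were called. The median of all genes tested at 1 µM was −0.26 as deposited (9755 genes) and −0.12 after scaling (8548 genes). After quantile normalization it was −0.01 (9755 genes). Without replicate 1 the scaled FADS3 difference was 0.76 (adjusted p = 0.0318). FADS3 was higher at 1 µM under each scaling. The calls over all genes at 1 µM were 63 higher and 119 lower as deposited, 246 and 325 after scaling, and 532 and 553 after quantile normalization.

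The leading FADS3 transcript, ENST00000278829 (12 exons, chromosome 11, minus strand, 61873526 to 61891534), made up 63.8% of the locus. A further 17.4% was in an unnamed 11-exon transcript that reached 16.8 FPKM in replicate 3 of 1 µM. With the unnamed transcripts included and as deposited, the FADS3 locus had 35.4 ± 8.83 FPKM at 1 µM and 23.4 ± 8.11 in Control. None of the 16 member transcripts tested singly, those of FADS3 included, passed the threshold in any PCB 126 comparison. Of all transcripts, 0.00472% passed at 100 pM, 0.0614% at 10 nM, 0.552% at 1 µM, 0.906% over dose steps and 0.364% across the groups.

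The FADS3 promoter is shown beside that of ELOVL2 because the 2 genes moved in opposite directions. The 250 bases before its RefSeq start, chr11:61891546-61891795, minus strand (GRCh38.p14), are given 5′ to 3′ with CCAAT, or ATTGG on the other strand, in capitals.

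FADS3: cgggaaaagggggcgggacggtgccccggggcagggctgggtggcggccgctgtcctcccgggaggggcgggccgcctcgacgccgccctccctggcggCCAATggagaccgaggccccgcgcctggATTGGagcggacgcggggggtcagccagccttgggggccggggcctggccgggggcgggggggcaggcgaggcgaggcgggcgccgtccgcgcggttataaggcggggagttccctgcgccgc

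The FADS3 window held no GCGTG, 2 CCAAT boxes and 4 GC boxes. Among the other members, the window before the RefSeq start held 2 GCGTG cores for ELOVL1, whose mean was that of Control. It held 1 core each for FADS1, SCD and ELOVL7. Their RefSeq starts lie 159, 109 and 104 bases downstream of the starts of their leading transcripts. These cores thus fall inside those transcripts, whereas the ELOVL2 window ended before its transcript. FADS2 had 1 core before the start of its leading transcript and none before its other RefSeq start. ELOVL5 and ELOVL6, which had lower means, held none, and neither did ELOVL4. A link between the core and the direction of change was not tested.

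**Figure D3:**
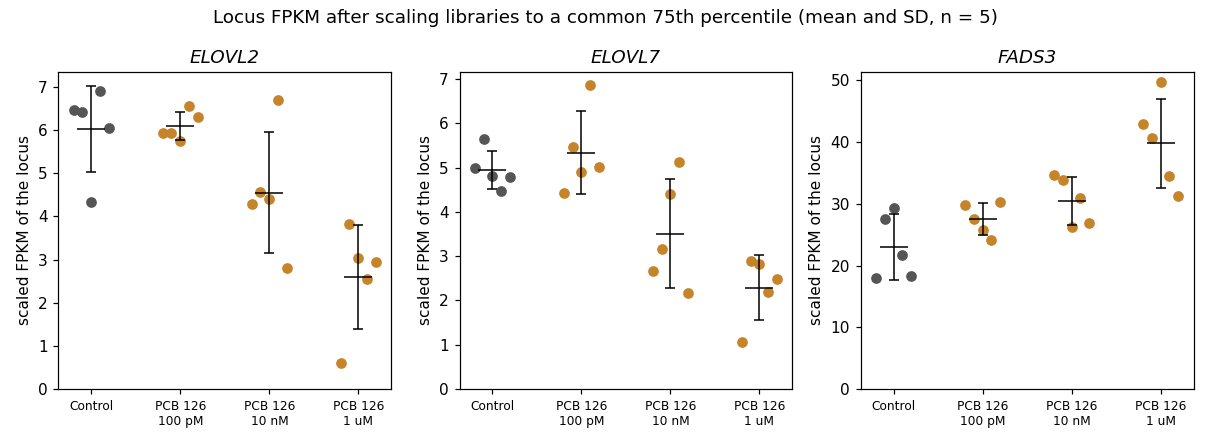
Locus FPKM of ELOVL2, ELOVL7 and FADS3 in Control and at the 3 doses of PCB 126, after scaling the libraries to a common 75th percentile (1 point per library, mean and SD, n = 5). At 1 µM the points of ELOVL2 (0.601 to 3.82) and ELOVL7 (1.06 to 2.89) lie below all Control points, and those of FADS3 (31.3 to 49.8) above all Control points.

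SCD, the stearoyl-CoA desaturase, had Control values of 221, 217, 204, 305 and 146 FPKM. At 10 nM the values were 189, 227, 101, 344 and 105, and at 1 µM 50.4, 157, 137, 196 and 110, lower on average but overlapping with Control. The SCD difference was −0.84 (95% interval −1.55 to −0.12, limma adjusted p = 0.269). Without replicate 1 it was −0.53. SCD carries a single transcript, ENST00000370355, of 5362 bases in 6 exons (chromosome 10, plus strand, 100347124 to 100364834). After scaling, all 5 SCD values at 1 µM (76.6 to 185) were below the lowest of Control (188), as in 5.08% of genes after this scaling, while the limma adjusted p of the slope stayed at 0.0848.

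FADS1, the delta-5 desaturase, ranged from 6.09 to 17.0 FPKM in Control and from 2.90 to 11.3 at 1 µM, where its difference was −0.50 (95% interval −1.14 to 0.15), or −0.21 without replicate 1. FADS2, the delta-6 desaturase, ranged from 0.751 to 3.02 in Control and from 0.283 to 2.13 at 1 µM. In a fit without a filter its difference was −0.16 (SE 0.27). FADS1 and FADS2 overlap head to head on opposite strands, so reads there cannot be fully told apart without the strand setting. FADS2 also shares its assembled locus with FEN1.

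ELOVL5, which elongates the polyunsaturated products of FADS2 and FADS1, had 40.7, 43.5, 35.2, 31.2 and 20.2 FPKM in Control and 2.50, 34.2, 28.3, 28.9 and 19.7 at 1 µM. The difference of −0.87 (95% interval −1.76 to 0.02) rested on replicate 1, and without it was −0.27. In that library the main ELOVL5 transcript, ENST00000304434, was listed at 0.0102 FPKM and ENST00000370918, at most 0.223 in the other 39 libraries, at 2.17. ELOVL5 was also low in replicate 4 of 10 nM (16.4) and replicate 2 of Roundup (18.7), whose summed FPKM were not under 340000.

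ELOVL6, which extends palmitate to stearate, ranged from 3.58 to 11.2 FPKM in Control and from 1.91 to 8.32 at 1 µM, a difference of −0.65 (95% interval −1.39 to 0.08), or −0.41 without replicate 1. ELOVL1, which makes very long saturated and monounsaturated chains, had 25.6 ± 7.07 FPKM in Control and 25.6 ± 5.28 at 1 µM (SD, n = 5), a difference of 0.03 (95% interval −0.52 to 0.57).

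At 1 µM, none of the 7 tested members passed the threshold as deposited, against 1.87% of all genes (0.646% higher and 1.22% lower), and 3 of them (ELOVL2, SCD and FADS3) had an unadjusted p under 0.05, against 13.6% of all genes. The median difference of the members was −0.65 and that of all genes −0.26. At 10 nM none passed (0.205% of all genes, 0.144% higher and 0.0615% lower), none had an unadjusted p under 0.05 (4.85% of all genes), and the medians were −0.29 and −0.21. At 100 pM none passed (0% of all genes), none had an unadjusted p under 0.05 (1.19%), and the medians were 0.10 and 0.07. In the F-test across the 4 groups no member passed (1.39% of all genes), and ELOVL2 had the lowest adjusted p, 0.185 by limma, and was the only 1 with an unadjusted p under 0.05 (9.56% of all genes). The PCB 126 comparisons share their Control libraries.

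**Figure D4:**
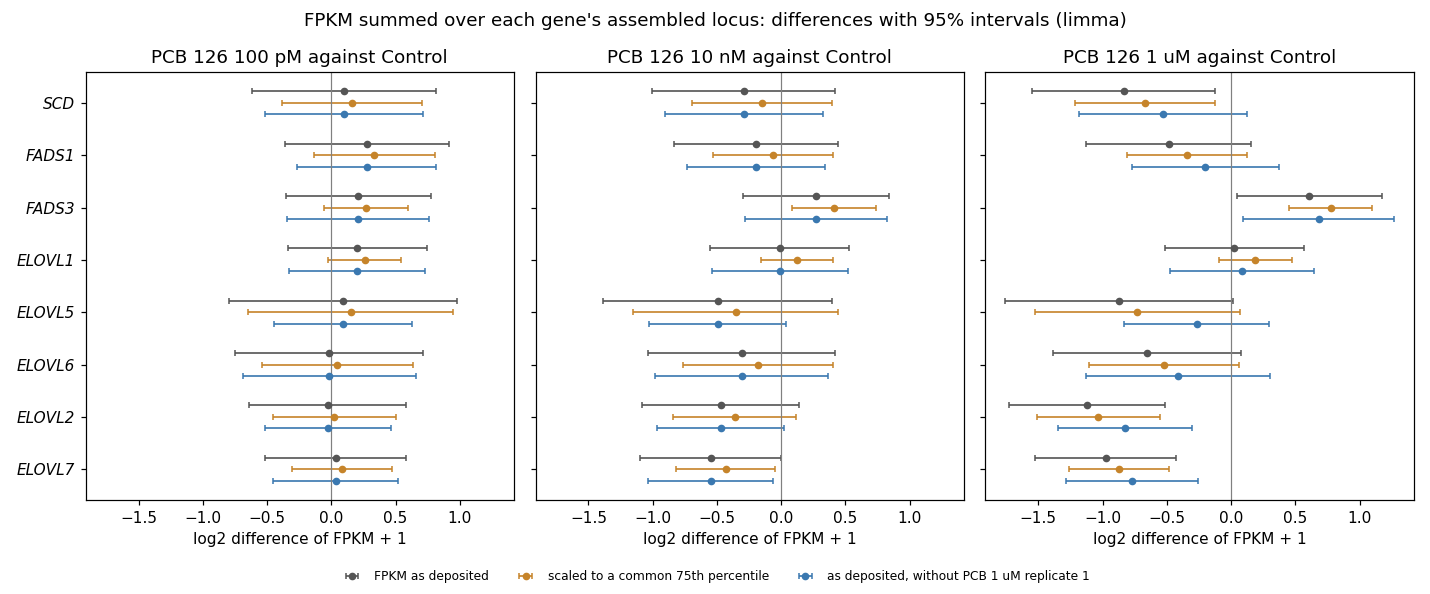
Differences from Control on the log2(FPKM + 1) scale (x axis) of 8 members at the 3 doses of PCB 126, for FPKM summed over the assembled locus, with 95% intervals from limma, as deposited, after scaling to a common 75th percentile, and as deposited without replicate 1 of 1 µM. At 1 µM the intervals of ELOVL2 and ELOVL7 lie below 0 and that of FADS3 above 0 in all 3 settings, and the estimate of ELOVL5 moves from −0.87 to −0.27 without replicate 1.

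Cell type markers moved at 1 µM too, where 1.22% of all genes were called lower. All 10 hepatocyte markers were tested, 2 of them fell (FGB and TTR, of which FGB was not called without replicate 1, limma adjusted p = 0.0715), and their median difference was −0.96. Their summed level was 5715 to 14534 FPKM at 1 µM against 14614 to 21315 in Control. ALB had 2922 to 8721 FPKM at 1 µM against 9144 to 12989 in Control. None of the 4 tested biliary and progenitor markers of 8 passed, with a summed level of 165 to 285 FPKM against 279 to 535. Of the 8 stromal markers 6 were tested and COL3A1 fell, with a summed level of 50.8 to 190 FPKM against 41.1 to 91.9. The immune list (0 of 2 tested, 5.14 to 10.1 against 4.21 to 14.0 FPKM) and the endothelial list (0 of 1 tested, 0.595 to 1.25 against 0.874 to 5.22 FPKM) were low throughout. At 1 µM the 4 proliferation markers did not pass (14.8 to 37.3 against 26.9 to 66.9 FPKM). Over dose steps, the comparison that called ELOVL2, more markers were called lower. These were ALB (slope −0.38, limma adjusted p = 0.0202), TF (−0.44, adjusted p = 0.0138), FGB, TTR, SPP1, KDR, TOP2A and COL3A1. Without replicate 1 of 1 µM, ALB, SPP1 and TOP2A were no longer called (adjusted p = 0.0552, 0.0715 and 0.0896). Of all genes, 2.82% were called lower in this trend. The part of the cell type markers in the lower ELOVL2 and ELOVL7 was not tested.

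The enzymes that complete the elongation cycle did not pass the test in any PCB 126 comparison. Of 13 listed genes for the reductases, the dehydratases and the cytochrome b5 system, which brings electrons to the desaturases, 9 were tested, and none was called at 1 µM or over dose steps (medians −0.31 and −0.12, against −0.26 and −0.10 for all genes). Of 5 other desaturases and elongases, 2 were tested (SCD5 and DEGS1) and neither was called. None of 7 tested genes of fatty acid synthesis (of 10), 10 of peroxisomal chain shortening (of 12), 12 of phospholipid remodelling (of 15) or 7 neighbours of the FADS cluster (of 9) was called.

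Among 18 regulators, all tested, only PPARGC1A passed at 1 µM, where 1.87% of all genes were called and 1.22% were called lower. PPARGC1A, the coactivator PGC-1 alpha of PPARA and other nuclear receptors, had 1.54 ± 0.658 FPKM at 1 µM against 6.5 ± 2.36 in Control (SD, n = 5), a difference of −1.54 (limma adjusted p = 0.00268). SREBF1, NR1H3 and PPARA were not called. Of 12 genes of fatty acid activation and uptake, 9 were tested and ACSM3, a medium-chain acyl-CoA synthetase, fell, from 8.39 ± 2.97 to 2.69 ± 2.48 FPKM (difference −1.65, limma adjusted p = 0.0379). Without replicate 1 of 1 µM, ACSM3 was no longer called (−1.30, adjusted p = 0.126), while PPARGC1A was (−1.39, adjusted p = 0.00742).

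Of 14 genes of eicosanoid synthesis, which uses the products of FADS1, 7 were tested and 2 fell at 1 µM. Of all genes, 1.22% were called lower there. CYP2C8, a cytochrome P450 that epoxidises arachidonic acid, went from 31.3 ± 7.13 to 9.76 ± 4.37 FPKM (difference −1.70, limma adjusted p = 0.00937). PTGES2, a prostaglandin E synthase, went from 7.74 ± 4.14 to 2.08 ± 2.05 FPKM (difference −1.61, adjusted p = 0.042). Without replicate 1, CYP2C8 and PTGES2 were still called (adjusted p = 0.0265 and 0.0348). PTGS1, PTGS2, ALOX5, ALOX12, ALOX15 and ALOX15B, the cyclooxygenases and lipoxygenases, did not pass the filter on variance.

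None of the 7 tested members passed the threshold in glyphosate or Roundup. In each of the 4 comparisons with Control, in the dose trend of glyphosate and in the F-test across the 5 groups, limma called none of the 7 members, and 0% of the 9533 genes tested. No tested member had an unadjusted p under 0.05 in any of them, while 0.997% of all genes did at 10 µg/L, 1.31% at 1 mg/L, 0.881% at 0.1 g/L, 1.73% in Roundup, 1.02% in the dose trend and 1.36% across the groups. The members' medians ran with those of all genes: −0.03 and −0.04 at 10 µg/L, 0.19 and 0.14 at 1 mg/L, 0.03 and −0.01 at 0.1 g/L, and −0.11 and −0.18 in Roundup.

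ELOVL2, the member that fell with PCB 126, had 5.66 ± 1.29, 6.80 ± 0.574 and 6.10 ± 1.73 FPKM (SD, n = 5) at the rising doses of glyphosate and 5.25 ± 1.34 in Roundup, beside 6.01 ± 1.42 in Control. Its values in Roundup were 5.98, 6.99, 5.43, 4.0 and 3.83 FPKM and overlapped with Control. The ELOVL2 difference was 0.01 at 0.1 g/L (95% interval −0.45 to 0.46). The ELOVL7 locus had 4.76 ± 1.41 FPKM at 0.1 g/L, a difference of −0.06 (95% interval −0.52 to 0.39). FADS3 had 19.2 ± 3.05 FPKM there, a difference of 0.12 (95% interval −0.46 to 0.71).

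The ELOVL5 values in Roundup, 38.1, 18.7, 30.7, 23 and 18.1 FPKM, gave the largest difference from Control among the 7 tested members, −0.41 (95% interval −0.95 to 0.13, limma adjusted p = 0.902). Between Roundup and glyphosate at the same 10 µg/L, the 7 differences ran from −0.38 for ELOVL5 (95% interval −0.91 to 0.16) to 0.08 for FADS1 (95% interval −0.52 to 0.68), and none passed (limma adjusted p = 0.974 for each, with 0% of all genes called and 1.27% at an unadjusted p under 0.05). Of the members outside the filter, FADS2 had 1.40 FPKM on average in Roundup and 2.36 in glyphosate at 10 µg/L, a difference of −0.51 in a limma fit without a filter, with an unadjusted p under 0.05 and an adjusted p of 1. The named transcripts of ELOVL7 had 0.0602 ± 0.0374 FPKM in Roundup against 0.381 ± 0.398 in Control, with overlapping groups, and the sum over the ELOVL7 locus differed by −0.16 (95% interval −0.61 to 0.30). What the Roundup dose refers to, the formulation or its glyphosate, is not given in the sources used here.

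**Figure D5:**
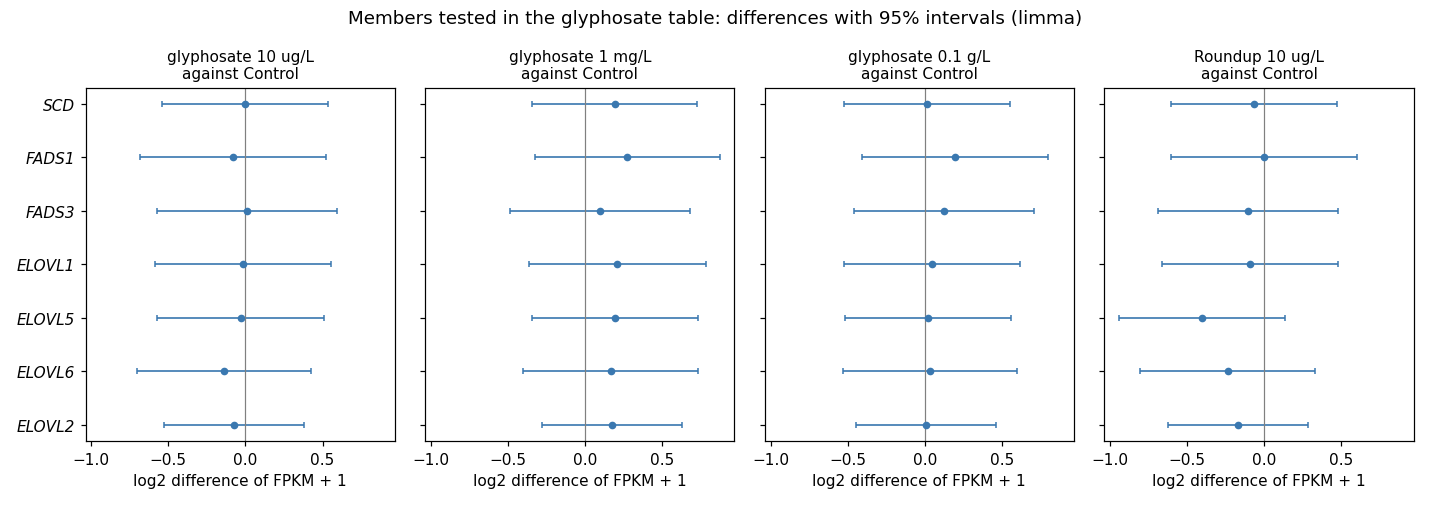
Differences from Control on the log2(FPKM + 1) scale (x axis) of the 7 tested members at 3 doses of glyphosate and in Roundup, as points with 95% intervals from limma (n = 5 per group). All intervals include 0, and the lowest estimate is that of ELOVL5 in Roundup, −0.41.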

How the data were processed

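Total RNA of HepaRG cells was measured by the authors in 40 libraries, after removal of ribosomal RNA and with a strand-preserving kit. Per the labels, reads were aligned with HISAT2 to GRCh38 and assembled and quantified with StringTie, and the deposited values are FPKM of 234960 transcripts per library, 35782 of them without a gene name. They are not counts, and the number of libraries, 5 per group, limits the precision. Some deposited columns hold small values below 0 and were treated as a score, and these (4 for PCB 126, 6 for glyphosate) were set to 0. The 5 Control libraries hold the same values in both tables, and no other libraries were identical.

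FPKM were summed by gene name. log2(FPKM + 1) was tested with limma 3.58.1 in R 4.3.3, with 1 fit per table over all of its groups (F-test, each group against Control, trend over dose steps), with a variance filter of 1 and Benjamini-Hochberg adjustment. Scaling, where named, set the 75th percentile of the genes above 0 to a common value. Other steps used Python 3.11.15, pandas and scipy. The fit was tested on simulated data.

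The members, gene lists, markers and tests were chosen with earlier results of these data known. Per list, at most 4 genes past the threshold with the smallest adjusted p were named, and other list genes and marker genes named were chosen for their roles. For a member past the threshold, the 3 genes with the highest Pearson r over the 40 libraries were named. Replicate numbers follow the library numbers of the labels, which name libraries and pair none. Alternatives were another pseudocount, other filters, scalings, sums and models, a replicate block, array weights, fits of the 2 groups compared or of all 8, and leaving out each library.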

Additional observations from a re-analysis of the deposited data

Results flagged for a closer look

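In 72 groups of 5 libraries (9 members in 8 groups), 6 libraries lay far from the other 4 of their group, with a gap above 0.71 of the group's range on the log2 scale. Chance gives about 1 such library in 20 groups. Replicate 1 of PCB 126 1 µM was the lowest for ELOVL2 (0.087 FPKM) and for ELOVL5 (2.50 FPKM), and it is the library whose long transcripts were low. ELOVL6 was lowest in Control replicate 5 (3.58 FPKM) and in replicate 5 of glyphosate 10 µg/L (3.61 FPKM), both with a summed FPKM under 340000.

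For the named transcripts of ELOVL7, replicate 3 of 10 nM (2.30 FPKM) and replicate 5 of 1 µM (2.02 FPKM) were the highest of their groups. In both libraries the unnamed main transcript was listed at 0, and the sum over the ELOVL7 locus, 2.44 and 2.02 FPKM, lay within the range of the other libraries of the group.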

How the results depend on the processing

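The depth behind each value is unknown, so the precision of low members cannot be stated. The slope of ELOVL2 over PCB 126 dose steps stayed negative in all 19 other settings (−0.58 to −0.23) and without each library in turn (−0.44 to −0.28; limma adjusted p 0.0218 to 0.0921). In 14 of the 19 it stayed past the threshold, and in the other 5 the adjusted p was 0.102 with a pseudocount of 0.1, 0.116 without a filter, 0.0626 for the most abundant transcript, 0.0881 in a plain linear model that included library size, and 0.0799 without the libraries under 340000. The number of members called over dose steps was then 0 in these settings, and 2 with quantiles, array weights (which did not converge fully), 75th-percentile scaling or the length trend removed, the last pair also without replicate 1 of 1 µM (ELOVL2 lower, FADS3 higher). The share of all genes called rose too, from 3.7% to 12.9%, 13.2%, 9.8% and 13% in these 4 settings. It was 2 with the sum over the locus, also without that replicate (ELOVL2 and ELOVL7 lower), and 3 when the locus sum was scaled or its length trend removed.

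At 1 µM, 0 members called as deposited became 1 (ELOVL2) with the locus sum, the replicate block (adjusted p 0.0309), array weights, the fit of all 8 groups, and scaling without the libraries under 340000, and 2 (FADS3 too) with quantiles, and with scaling or the length trend removed, both with and without replicate 1, where the share of all genes called went from 1.87% to 11.1% (quantiles), 6.68% (scaling) and 11.1% (length) with all libraries. It became 3 for the scaled or length-corrected locus sum. Across the 4 groups, 0 became 1 with array weights or with scaling and no replicate 1, 2 with quantiles or the length trend removed, and 3 for the scaled or length-corrected locus sum. Where no share of all genes called is given beside such a count, the count by itself is no result about the members. In the glyphosate table, 0 became 3 across groups, 1 in Roundup (ELOVL6) and 1 in Roundup against glyphosate (ELOVL5) with array weights alone, which called 58%, 36.4% and 46.7% of all genes there. With each library left out in turn, 0 to 1 members were called at 1 µM (1 without Control replicate 5 or 1 µM replicate 2) and over dose steps, and 0 in the other comparisons. The cause of these changes was not tested. Libraries with the same number, tested as a replicate block, correlated at −0.056 to 0.169 (7 of 30 pairs over 0.1, PCB 126) and −0.17 to 0.36 (19 of 50, glyphosate). The library numbers fall in 5 runs, each with 1 library of each of the 8 groups. The labels pair none and do not say what a run stands for. The main fit did not use the numbers, so its p-values leave these runs out. These correlations over all genes cannot exclude a factor shared by libraries of the same number. SCD was highest in replicate 4 in Control (305 FPKM), at 100 pM (305), 10 nM (344) and 1 µM (196) and at each glyphosate dose, but not in Roundup. The block moved the calls over all genes from 182 to 357 at 1 µM and from 361 to 607 over dose steps, and changed no other call of a member. After scaling, ELOVL2 fell under the filter in the glyphosate table. The settings that removed the length trend or the low-sum libraries, scaled the locus sum, or combined a setting with the loss of replicate 1 were chosen after seeing the data.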
